A study of Mus musculus with 6 samples.

Results

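The collagen genes of mouse small intestine were taken as the protein-coding genes whose symbol is Col, a number, the letter a and a number, such as Col1a1. The rule found 44 genes of the 45777 in the table, of which 11 encode chains of fibrillar collagens, 6 encode the type IV chains of basement membranes and 27 encode other types. A filter on low counts left 37 of them for testing (10 fibrillar, 6 type IV and 21 other). Total RNA had been sequenced from 3 libraries labelled DIO-zeta, whose treatment label is PKCzeta overexpression, and 3 labelled DIO-GFP, the control. What DIO stands for in the 6 titles is not explained in the labels, nor are the strain, the age, the vector and the promoter stated there. The stated aim was to find genes that change with Prkcz overexpression.

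Collagens are proteins of the extracellular matrix in which 3 chains wind into a triple helix. Fibrillar types (I, III, V and their relatives) form the fibrils that give the submucosa and the muscle layers their tensile strength. Type IV forms the sheet that underlies the epithelium and surrounds vessels, smooth muscle cells and glia. Other types coat fibrils, link them to cells or span the cell membrane. In the gut most fibrillar collagen is made by fibroblasts and smooth muscle cells.

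Total counts ran from 77573133 to 87572356 in the DIO-zeta libraries and from 85411847 to 93742978 in the DIO-GFP libraries. Epithelial markers were abundant in all 6 libraries (14848 to 15811 CPM summed over 8 genes with the DIO-zeta label and 16080 to 19985 CPM with the DIO-GFP label), where CPM is the read count scaled to library size, with edgeR's TMM factors. Prkcz itself stood at 82.5, 100.07 and 57.0 CPM in DIO-zeta replicates 2-1, 4-1 and 4-2, against 70.5, 98.6 and 96.9 CPM in DIO-GFP replicates 1-1, 1-4 and 3-1 (log2 fold change -0.15, SE 0.24, edgeR adjusted p 0.950). The targeted gene was thus not higher with its label. Whether reads of a transgene would be counted in the Prkcz row is not stated in the labels. Every direction below is one between libraries labelled DIO-zeta and libraries labelled DIO-GFP. Values of single libraries are given below in the same order of replicates, and the labels do not say what either number of a replicate stands for. Reads in ribosomal RNA rows took 4.44%, 2.33% and 0.956% of the DIO-zeta libraries and 4.40%, 1.35% and 4.66% of the DIO-GFP libraries. The 95% Wilson interval of each share is within 0.00778 percentage points on either side, which covers counting error only. The labels do not say that each library is a separate animal, so p-values measure the spread between these samples, which may be technical.

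A handful of chains made up most of the collagen message. On the deposited FPKM scale, which divides reads by gene length and so allows genes to be set side by side, the 6 most abundant members (Col3a1, Col6a1, Col4a1, Col1a2, Col6a2 and Col4a2) held 69.7%, 72.6% and 71.4% of the summed collagen FPKM in the DIO-zeta libraries and 68.5%, 71.2% and 68.5% in the DIO-GFP libraries. Fibrillar chains held 34.8%, 28.3% and 39.7% with the DIO-zeta label and 34.6%, 37.4% and 39.7% with the DIO-GFP label. Type IV chains held 23.0%, 24.4% and 17.8% against 20.7%, 18.9% and 18.1%, and the type VI family held 26.5%, 32.0% and 29.5% against 28.1%, 29.0% and 27.1%. The groups overlapped in each of these shares, and no share was tested. Of the 44 members, 15 had a mean of at least 1 FPKM and 29 had less.

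**Figure D1:**
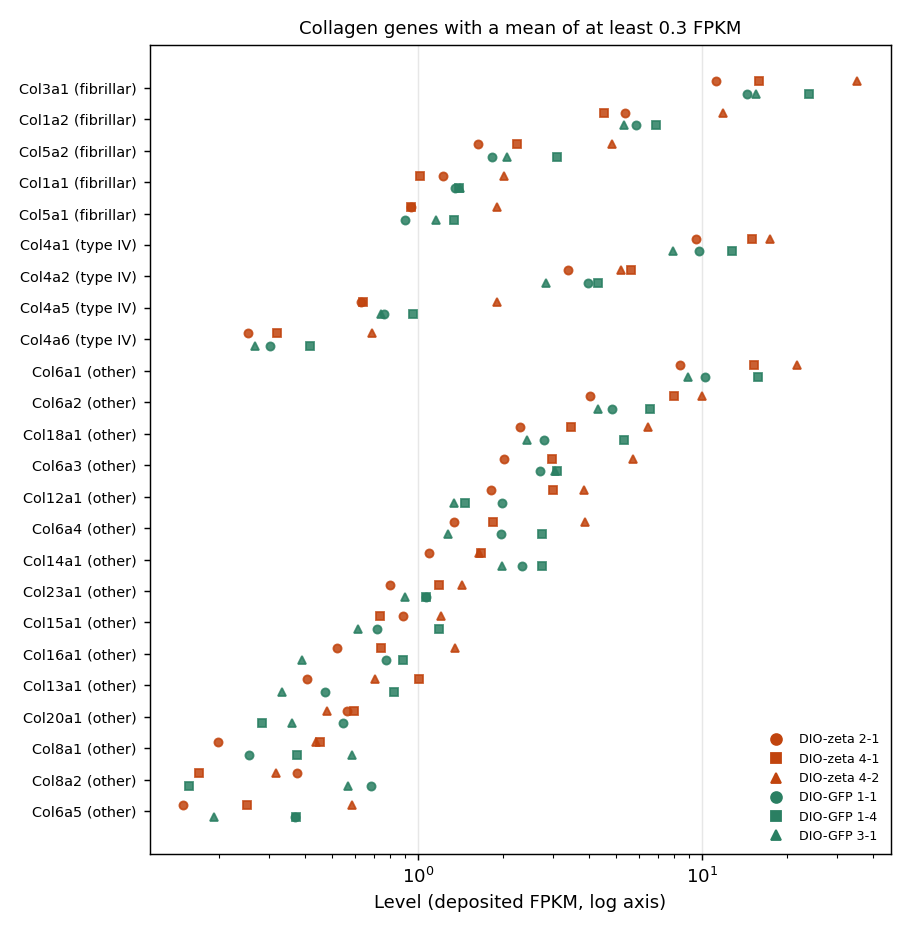
Deposited FPKM (log axis) of the 24 collagen genes with a mean of at least 0.3 FPKM, by class, with one point per library, DIO-zeta in orange above DIO-GFP in green. Col3a1, Col6a1 and Col4a1 stand highest, and DIO-zeta replicate 4-2 is the rightmost point for most genes.

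Among fibrillar collagens, Col3a1, whose product forms the type III fibrils of stretchable organs, was the most abundant member of all. It was at 11.2, 15.9 and 35.1 FPKM in the DIO-zeta libraries and at 14.4, 23.8 and 15.5 FPKM in the DIO-GFP libraries. The DIO-zeta libraries hold both the lowest and the highest value, and the groups overlap. In the counts the level was 114 ± 57.8 CPM in DIO-zeta and 118 ± 28.2 CPM in DIO-GFP (SD, n = 3 each). The log2 fold change, DIO-zeta over DIO-GFP, was -0.051, with SE 0.35, a 95% interval from -0.85 to 0.75 and edgeR adjusted p 0.989. This sign turned on log2(TPM + 1), where it was 0.084, and when single libraries were left out. Its locus (Entrez 12825) spans chromosome 1 from 45311538 to 45349706 (mm10), and its transcript has 51 exons.

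Col1a2, the alpha 2 chain of type I collagen (Entrez 12843, chromosome 6 from 4505618 to 4541543), was at 5.36, 4.54 and 11.9 FPKM with the DIO-zeta label and at 5.89, 6.90 and 5.34 FPKM with the DIO-GFP label. Replicate 4-2 stood above the other 5 libraries, which lay between 4.54 and 6.90 FPKM. Mean levels were 37.5 ± 16.9 CPM in DIO-zeta and 37.4 ± 3.00 CPM in DIO-GFP (SD, n = 3 each), for which edgeR gave 0.0054 on the log2 scale (SE 0.29, adjusted p 0.999). Without DIO-zeta replicate 4-2 it was -0.42. Col1a1, the partner alpha 1 chain, was at 1.23, 1.02 and 2.01 FPKM in DIO-zeta and at 1.35, 1.39 and 1.41 FPKM in DIO-GFP. The type V chains that start fibril assembly were at 1.63 to 4.81 FPKM (Col5a2) and 0.945 to 1.90 FPKM (Col5a1) in DIO-zeta, against 1.83 to 3.09 and 0.905 to 1.35 FPKM in DIO-GFP. The remaining fibrillar members were scarce. Col5a3, Col27a1, Col24a1, Col11a1 and Col11a2 had at most 0.227 FPKM in any library, and Col2a1, the cartilage fibril chain, had 0 reads in all 6, which allows at most 0.0378 CPM in a library (3 counts).

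The bases upstream of the annotated start (RefSeq, GRCm38.p6) are shown for these leading chains of types III and I, since both encode abundant fibril chains and yet differ in motif content. Capitals mark matches to the strings TATAAA (of the TATA box), CCAAT (of the CCAAT box) and GGGCGG (of the GC box). They were searched on both strands of the 250 bases before the start. A match is a string only, and its use as a promoter element was not tested. Col3a1 at chr1:45311288-45311537 holds a TATAAA 117 bases upstream. Col1a2 at chr6:4505368-4505617 holds a CCAAT that begins 109 bases upstream and a GGGCGG at 205 and at 188 bases upstream.
Col3a1: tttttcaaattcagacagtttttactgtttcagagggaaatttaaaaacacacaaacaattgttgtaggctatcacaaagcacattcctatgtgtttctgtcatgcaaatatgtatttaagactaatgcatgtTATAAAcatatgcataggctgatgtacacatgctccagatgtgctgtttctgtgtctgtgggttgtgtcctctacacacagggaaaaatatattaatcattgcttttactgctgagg
Col1a2: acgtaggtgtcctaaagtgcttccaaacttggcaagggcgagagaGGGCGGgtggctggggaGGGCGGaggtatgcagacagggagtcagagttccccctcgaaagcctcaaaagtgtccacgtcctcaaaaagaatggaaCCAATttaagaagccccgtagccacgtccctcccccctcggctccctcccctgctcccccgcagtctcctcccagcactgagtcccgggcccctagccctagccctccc
Windows were found for 35 of the 44 members. Over all 32851 windows of this length in the table, 33.9% hold CCAAT, 12.4% hold TATAAA and 32.7% hold GGGCGG. Of the 35 members, by the first listed window of each, 12 hold CCAAT, 5 hold TATAAA and 21 (60%) hold GGGCGG. The members' shares thus count genes, while those over the whole table count windows, of which a gene can have several.

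Of the type IV chains, Col4a1 and Col4a2 form the network found in nearly every basement membrane. Col4a1 (Entrez 12826, chromosome 8 from 11198423 to 11312889) was at 9.58, 15 and 17.4 FPKM in the DIO-zeta libraries and at 9.73, 12.8 and 7.91 FPKM in the DIO-GFP libraries. Replicates 4-1 and 4-2 were above all DIO-GFP libraries and replicate 2-1 was among them. The log2 fold change from counts was 0.23 (SE 0.22, 95% interval -0.27 to 0.73, edgeR adjusted p 0.917), with 93.1 ± 20.1 CPM in DIO-zeta and 79.2 ± 15.2 CPM in DIO-GFP (SD, n = 3 each). Col4a2 (chromosome 8 from 11312805 to 11449287) was at 3.37, 5.63 and 5.18 FPKM against 3.98, 4.32 and 2.83 FPKM. In CPM it was at 24.1, 38.1 and 30.6 against 30.7, 31.5 and 22.8, so that there only replicate 4-1 was above all DIO-GFP libraries.

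These neighbours are read in opposite directions from nearly the same place. By the annotated starts, Col4a1 begins at 11312826 on the minus strand and Col4a2 at 11312805 on the plus strand, so their first 22 bases overlap (chr8:11312805-11312826, plus strand, GRCm38.p6, with GGGCGG in capitals).
Col4a1-Col4a2: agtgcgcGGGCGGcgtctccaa
Over the whole gene spans the overlap is 85 bases, and no source used here says whether the counting took strand into account.

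Col4a5 and Col4a6, a pair known from the basement membranes of smooth muscle, had 0.632, 0.640 and 1.90 FPKM (Col4a5) and 0.252, 0.319 and 0.690 FPKM (Col4a6) in DIO-zeta, against 0.764, 0.965 and 0.744 FPKM and 0.302, 0.417 and 0.268 FPKM in DIO-GFP. Both were highest in replicate 4-2. Col4a3 and Col4a4, best known from the kidney glomerulus, were at 0.103 FPKM or less in every library. Col4a4 was the single type IV gene whose groups did not overlap, at 9, 15 and 13 reads with the DIO-zeta label and 30, 20 and 18 with the DIO-GFP label, where 10.4% of all tested genes had groups apart in either direction. These genes overlap each other by 114 bases, and Col4a3 also overlaps a long noncoding RNA gene with 133 reads over the 6 libraries.

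Among the other types, the type VI chains, which form beaded microfilaments around cells, had the highest levels, and Col6a1 came next to Col3a1 among all members. Col6a1 (Entrez 12833, chromosome 10 from 76708792 to 76726044) was at 8.39, 15.3 and 21.7 FPKM with the DIO-zeta label and at 10.3, 15.8 and 8.94 FPKM with the DIO-GFP label, and Col6a2 (chromosome 10 from 76595756 to 76623630) was at 4.05, 7.97 and 9.99 FPKM against 4.84, 6.57 and 4.31 FPKM. The groups overlapped for both genes, with replicate 2-1 the lowest and replicate 4-2 the highest library. The log2 fold changes from counts were 0.13 for Col6a1 (SE 0.30, edgeR adjusted p 0.965) and 0.25 for Col6a2 (SE 0.28, edgeR adjusted p 0.929). Col6a1 was at -0.11 without replicate 4-2 and at -0.13 with the ribosomal RNA share as a covariate. Col6a3, the long chain of the type VI trimer, ran from 2.02 to 5.71 FPKM in DIO-zeta and from 2.70 to 3.09 FPKM in DIO-GFP. Its relatives Col6a4 and Col6a5 reached 3.89 and 0.586 FPKM, while Col6a6 had 7 reads or fewer. In CPM, all 5 tested genes of this family were lowest in DIO-zeta replicate 2-1 and highest in DIO-zeta replicate 4-2.

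Col18a1 and Col15a1, which are found at basement membranes and give rise to antiangiogenic fragments, were at 2.29, 3.46 and 6.45 FPKM and at 0.890, 0.737 and 1.21 FPKM in DIO-zeta. In DIO-GFP they were at 2.78, 5.30 and 2.43 FPKM and at 0.717, 1.19 and 0.617 FPKM. Col18a1 thus had its high values in replicates 4-2 and 1-4, the pair of libraries with the least ribosomal RNA. In CPM it was at 30.8 in replicate 4-2 and at 31.5 in replicate 1-4, so the highest library depended on the scale. The transmembrane collagen genes Col23a1 and Col13a1 had means of 1.08 and 0.626 FPKM. Col17a1, of the hemidesmosome, and Col7a1, of the anchoring fibrils of skin, had at most 0.0589 and 0.0335 FPKM. Of the network-forming genes, Col8a1 and Col8a2 had means of 0.385 and 0.379 FPKM, and the cartilage gene Col10a1 had at most 11 reads. That gene lies inside Nt5dc1, which had 11848 reads over the 6 libraries, so its reads are uncertain. The cartilage FACIT genes Col9a1 and Col9a3 had at most 11 and 10 reads, Col26a1 had at most 10 and Col19a1 had 3 in a single library.

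Among the 15 more abundant members, both extremes lay within the DIO-zeta label. In CPM, DIO-zeta replicate 4-2 was the highest library for 12 of the 15, or 80%, against 23.1% of all 18456 tested genes. DIO-zeta replicate 2-1 was the lowest for 9 of the 15, or 60%, against 12% of all tested genes. For the 22 tested members under 1 FPKM the counts were 7 highest in replicate 4-2 and 5 lowest in replicate 2-1. Summed fibroblast markers (10 genes) were at 496, 567 and 577 CPM in DIO-zeta and 603, 548 and 582 CPM in DIO-GFP. The sum was lowest in replicate 2-1 and highest in replicate 1-1, and it came mostly from Gsn and Dcn. Gsn alone gave 258, 284 and 264 CPM in DIO-zeta and 258, 296 and 304 CPM in DIO-GFP. Dcn gave 126, 143 and 168 CPM against 182, 132 and 137 CPM. Smooth muscle markers (10 genes) were at 1100, 1342 and 1087 CPM against 1626, 686 and 1648 CPM. The part of the ribosomal RNA share, which was lowest in replicates 4-2 and 1-4, was not tested.

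**Figure D2:**
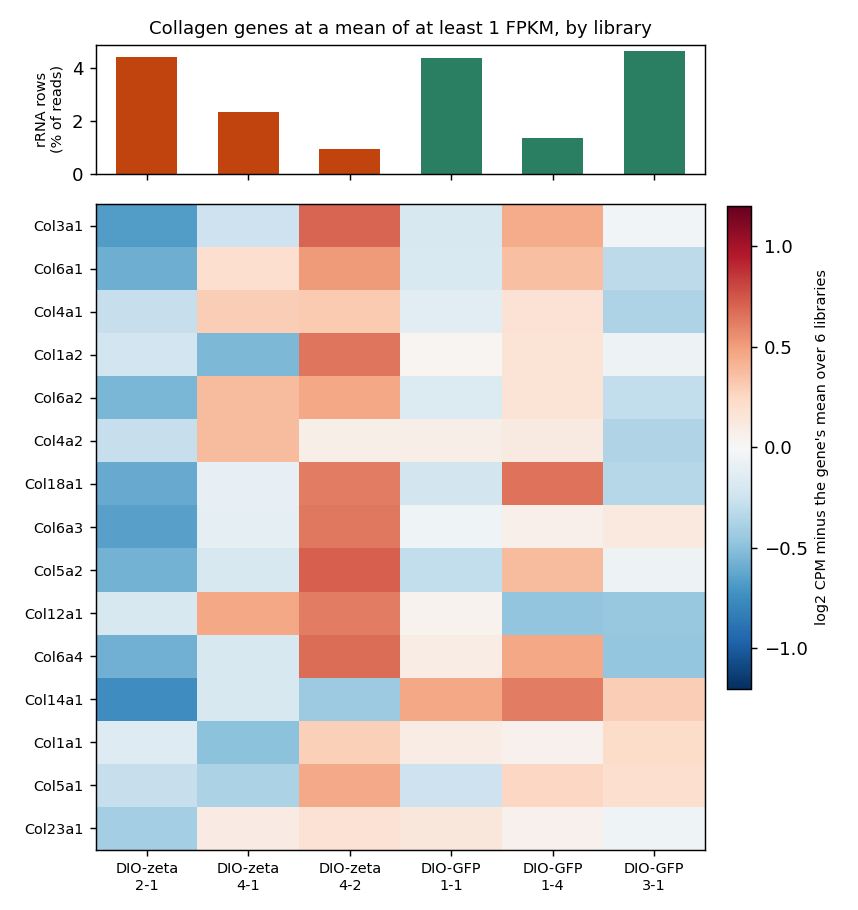
Share of reads in ribosomal RNA rows (top, percent) and log2 CPM of the 15 collagen genes at 1 FPKM or more, each minus its mean over the 6 libraries (colours), with DIO-zeta libraries left of DIO-GFP libraries. The column of replicate 2-1 is blue throughout and that of replicate 4-2 is red for each gene but Col14a1, which is blue in all 3 DIO-zeta libraries.

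No collagen gene passed the test between labels. Of the 37 tested members 0 had an edgeR adjusted p under 0.05, as had 0 of all 18456 genes (0% called), and adjusted p-values of the members began at 0.858. Unadjusted, 3 members (8.11%) had a p under 0.05, where 5.48% of all tested genes had one. The median log2 fold change was -0.023 over the 10 fibrillar genes, with 5 above 0, then 0.092 over the 6 type IV genes, with 4 above 0, and 0.13 over the 21 others, with 13 above 0. Over all tested genes it was 0.035, with 54.3% above 0. Without DIO-zeta replicate 4-2 the 3 medians were -0.41, -0.42 and -0.11, and with the ribosomal RNA share as a covariate they were -0.24, -0.19 and -0.13. DESeq2 called 1 member, Col14a1, beside 82 genes in all (0.566% of those with an adjusted p).

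**Figure D3:**
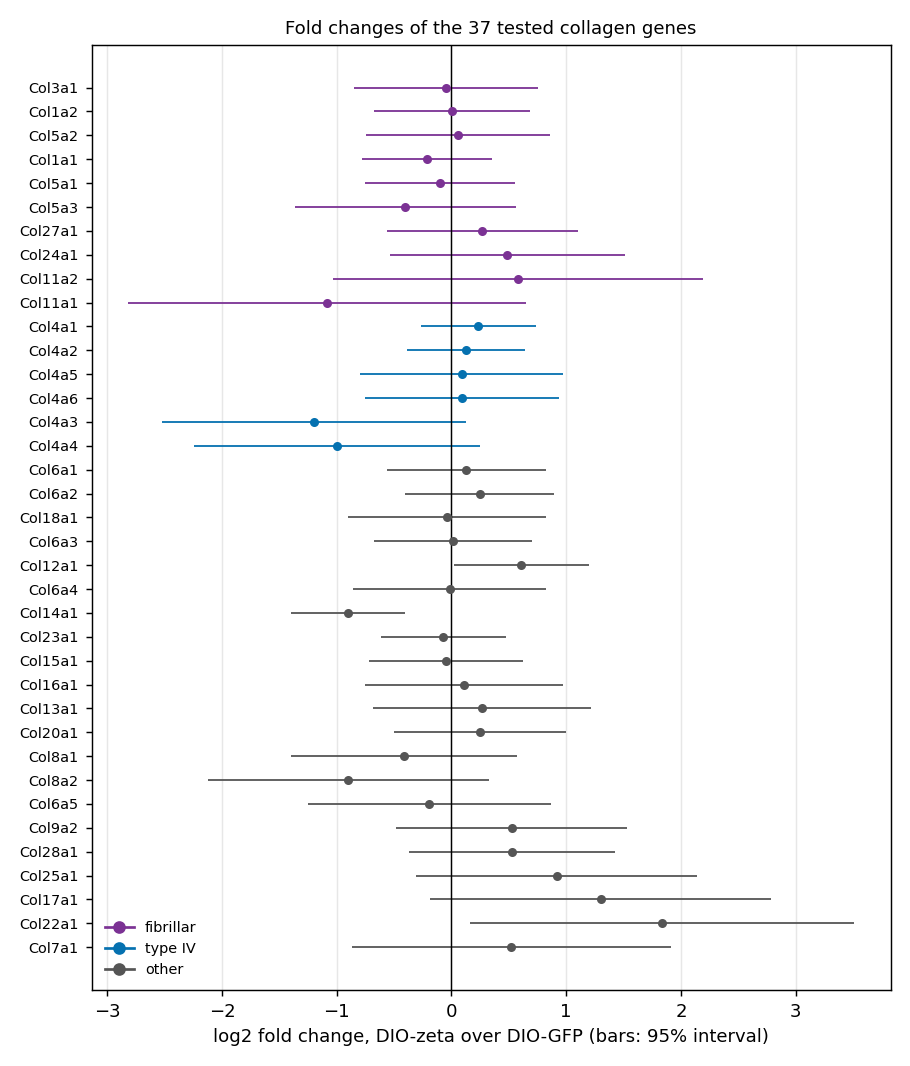
Log2 fold change, DIO-zeta over DIO-GFP, of the 37 tested collagen genes by class, with 95% intervals derived from the edgeR F test. The interval of Col14a1 lies below 0, those of Col12a1 and Col22a1 lie above it, and all others cross 0. None passed the test adjusted over all genes.

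The members with an unadjusted p under 0.05 were FACIT genes, whose products sit on the surface of fibrils rather than forming them. Their directions differed, with Col14a1 lower and Col12a1 and Col22a1 higher. Other tested FACIT genes had overlapping groups and an unadjusted p over 0.05 in edgeR. These were Col16a1 (log2 fold change 0.11, SE 0.37), Col20a1 (0.25, SE 0.32) and Col9a2 (0.52, SE 0.44). Col14a1 (Entrez 12818, chromosome 15 from 55307644 to 55520803), which encodes the type XIV chain, was at 7.75, 11.3 and 9.62 CPM in the DIO-zeta libraries and at 17.9, 19.8 and 15.9 CPM in the DIO-GFP libraries. All 3 DIO-zeta libraries lay below all 3 DIO-GFP libraries. Groups were apart in this direction for 5.66% of all tested genes. It averaged 9.56 ± 1.79 CPM in DIO-zeta and 17.9 ± 1.93 CPM in DIO-GFP (SD, n = 3 each). In edgeR this was -0.90 on the log2 scale (SE 0.21, interval -1.40 to -0.41), with unadjusted p 0.00293 and adjusted p 0.858. DESeq2 gave an adjusted p of 0.0223, and limma voom gave 0.549. The edgeR value stayed between -1.04 and -0.81 when each library was left out. In limma it was -0.49 on log2(TPM + 1) and -0.66 on log2(TPM + 0.1), with an unadjusted p over 0.05 on both scales. Within the libraries over 4% ribosomal RNA the difference in log2(CPM + 0.1) was -1.11 (1 DIO-zeta library against 2 DIO-GFP libraries), and within those under it -0.92 (2 against 1). Each of these differences has a single library on a side and so no spread there. With the ribosomal RNA share as a covariate over all 6 libraries, edgeR gave -0.98 (unadjusted p under 0.05, adjusted p 0.799). That fit was chosen after seeing the data, and beyond it the part of the ribosomal RNA share was not tested.

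Markers of cell types differed in both directions, and 0 of them had an edgeR adjusted p under 0.05. The 6 mesothelial markers summed to 1030, 1050 and 1670 CPM in DIO-zeta and to 698, 1613 and 1117 CPM in DIO-GFP, and the groups overlapped. Most of each sum was Krt19, a keratin that the epithelium also makes. The 5 others summed to 13.4, 13.1 and 9.21 CPM in DIO-zeta and to 26.4, 21.1 and 28.5 CPM in DIO-GFP. Of the 6 genes 1 was above 0 and 5 were below 0. At an unadjusted p under 0.05 in edgeR 4 of the 6 were lower, as were 3.07% of all tested genes. Of the 10 fibroblast markers 8 were below 0, 1 of them at that p, where 54.3% of all tested genes were above 0. All 10 smooth muscle markers (median log2 fold change -0.25) and all 8 epithelial markers (median -0.25) were below 0 too, with 1 and 2 of them at that p. Groups were apart for 3 epithelial markers, and in this direction for 5.66% of all tested genes. All 6 leukocyte markers were above 0 (median 0.49), 0 of them at that p. Also above 0 were 4 of 8 endothelial, 3 of 5 tested enteric glial, 3 of 5 adipocyte and 2 of 6 pericyte markers. The part of these markers in the result was not tested. In whole tissue, fewer cells of a type and less RNA per cell cannot be told apart.

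Col12a1, the type XII chain and the nearest relative of Col14a1 in domain structure, differed the other way. It was at 23.5, 36.9 and 41.1 CPM with the DIO-zeta label and at 27.6, 19.4 and 19.6 CPM with the DIO-GFP label. Replicates 4-1 and 4-2 were above all DIO-GFP libraries, and replicate 2-1 was among them. Its difference was 0.61 on the log2 scale of edgeR (SE 0.25, interval 0.023 to 1.19), with unadjusted p 0.0433 and adjusted p 0.895. Leaving out each library gave 0.45 to 0.78, with an unadjusted p over 0.05 in 4 of the 6 fits. Within the libraries over 4% ribosomal RNA the difference in log2(CPM + 0.1) was 0.015 (1 DIO-zeta library against 2 DIO-GFP libraries), and within those under it 1.00 (2 against 1). A single library stands on a side of each. With the ribosomal RNA share as a covariate over all 6 libraries, edgeR gave 0.51 (unadjusted p over 0.05, adjusted p 0.832). Beyond that fit the part of the ribosomal RNA share was not tested. The FPKM ratio of Col12a1 to Col14a1, chosen after its values were seen, was 1.65, 1.80 and 2.33 in DIO-zeta and 0.852, 0.536 and 0.679 in DIO-GFP.

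Col22a1, a chain known from the junction of muscle and tendon, was scarce, at 20, 29 and 55 reads in the DIO-zeta libraries and 8, 16 and 2 reads in the DIO-GFP libraries. The groups did not overlap, as was the case in this direction for 4.72% of all tested genes. Its log2 fold change was 1.84 (SE 0.73, unadjusted p 0.0351, edgeR adjusted p 0.877). In limma it was 0.063 on log2(TPM + 1) and 0.47 on log2(TPM + 0.1), with an unadjusted p over 0.05 on both scales. Leaving out each library gave from 1.37, without DIO-GFP replicate 3-1, to 2.55, without DIO-GFP replicate 1-4, and the unadjusted p was over 0.05 in 4 of the 6 fits.

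Ratios within a library show how far partner chains kept step. Of 7 pairs none could reach a p under 0.1, the smallest that a two-sided exact permutation test of 3 against 3 libraries allows, and the adjusted p was 0.9 for each. The FPKM ratio of Col4a1 to Col4a2 was 2.84, 2.67 and 3.36 in DIO-zeta and 2.45, 2.96 and 2.79 in DIO-GFP, a difference of 0.11 in log2 ratio (exact p = 0.5). That of Col6a1 to Col6a2 was 2.07, 1.92 and 2.17 against 2.12, 2.41 and 2.07 (log2 difference -0.099, exact p = 0.4). Their largest and smallest values over the 6 libraries differed 1.37-fold and 1.25-fold, and those of Col4a5 to Col4a6 1.38-fold. These pairs varied less than the genes themselves did.

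Type I collagen is built with more alpha 1 than alpha 2 chains, but its mRNAs stood the other way. The FPKM ratio of Col1a1 to Col1a2 was 0.230, 0.225 and 0.170 in the DIO-zeta libraries and 0.229, 0.202 and 0.265 in the DIO-GFP libraries (log2 difference -0.16, exact p = 0.5). The Col1a1 transcript is the richer in GC, at 58.9% against 55.7% for Col1a2, and the part of base composition in the ratio was not tested. Col3a1 to Col1a1 gave 9.12, 15.6 and 17.5 in DIO-zeta and 10.7, 17.1 and 11.0 in DIO-GFP (log2 difference 0.10, exact p = 0.9). This ratio was 15.6 or more in the 3 libraries with the least ribosomal RNA and 11.0 or less in the other 3, whatever the label. The ratio of Col5a2 to Col1a2 ran from 0.305 to 0.492 in DIO-zeta and from 0.310 to 0.448 in DIO-GFP. That of Col4a3 to Col4a4 ran from 0.859 to 4.22 and from 1.05 to 4.83, on few reads.

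**Figure D4:**
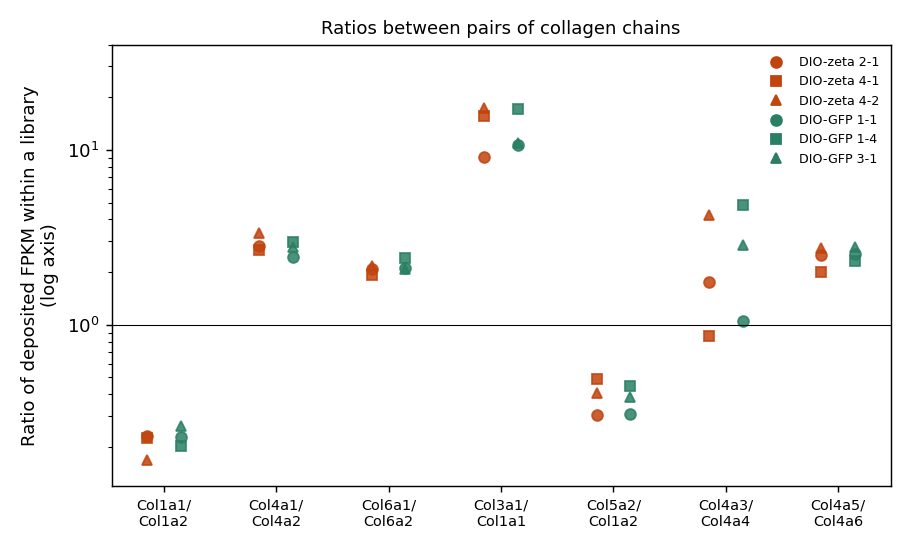
Ratio of deposited FPKM (log axis) between pairs of collagen chains in each library, DIO-zeta in orange left of DIO-GFP in green. The Col4a1/Col4a2, Col6a1/Col6a2 and Col4a5/Col4a6 ratios sit close together in all 6 libraries, Col1a1/Col1a2 lies below 1, and Col3a1/Col1a1 spreads from 9.12 to 17.5.

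The genes that make, join, bind and break collagen were followed in 7 lists, and 0 of their tested genes had an edgeR adjusted p under 0.05. The lists were chosen with earlier results of these data known. Over all tested genes 2.41% were higher and 3.07% lower at an unadjusted p under 0.05, and 54.3% were above 0. Of 21 tested genes of synthesis and folding, 0 were higher and 1 was lower at an unadjusted p under 0.05 (median log2 fold change -0.045). It was P4hb, the shared subunit of prolyl 4-hydroxylase and a general disulfide isomerase, at 1323 ± 186 CPM in DIO-zeta and 1830 ± 198 CPM in DIO-GFP (SD, n = 3 each; log2 fold change -0.47, SE 0.20, edgeR adjusted p 0.901). Mia2, which helps to export large cargo from the endoplasmic reticulum, had -0.28 (SE 0.18). Of 13 genes of procollagen cleavage and crosslinking, 1 was higher at that level, the N-propeptidase gene Adamts3 (log2 fold change 1.11, SE 0.48), at a mean of 1.22 CPM in DIO-zeta and 0.566 CPM in DIO-GFP. Bmp1, which removes C-propeptides, had -0.53 (SE 0.30).

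Among 17 partners of fibrils, 2 were higher and 0 were lower at an unadjusted p under 0.05, where 2.41% of all tested genes were higher and 3.07% lower. Thbs1, the matricellular protein thrombospondin 1, was at 127, 267 and 220 CPM with the DIO-zeta label and at 59.9, 89.7 and 101 CPM with the DIO-GFP label, with no overlap (log2 fold change 1.29, SE 0.30, edgeR adjusted p 0.858). Tnc, the tenascin of remodelling matrix, was at 43.1, 222 and 104 CPM against 44.3, 54.8 and 46.6 CPM, so that replicate 2-1 was not above the DIO-GFP libraries (log2 fold change 1.34, SE 0.51). The list's median was -0.076. Of 16 partners of type IV in basement membranes, 11 were above 0 (median 0.14), as were 54.3% of all tested genes, and 1 had an unadjusted p under 0.05. That gene was Lama3, a laminin chain of epithelial basement membranes, at 146, 93.7 and 94.3 CPM in DIO-zeta and 147, 174 and 184 CPM in DIO-GFP (log2 fold change -0.59, SE 0.21). Agrn, the proteoglycan agrin, had -0.40 (SE 0.21).

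Of 16 genes of collagen breakdown, 12 were above 0 (median 0.31), as were 54.3% of all tested genes. At an unadjusted p under 0.05 in edgeR 5 were higher and 0 lower, where 2.41% of all tested genes were higher and 3.07% lower. As this list was chosen with earlier results known, these counts are not a test of the list. The 5 were the collagenase genes Mmp8 and Mmp13, the stromelysin gene Mmp3, the membrane-bound protease gene Mmp14 and Timp1, an inhibitor of these proteases. Mmp13 was at 2.38, 10.6 and 9.29 CPM in DIO-zeta and at 2.71, 3.04 and 2.59 CPM in DIO-GFP (log2 fold change 1.42, SE 0.50, edgeR adjusted p 0.867). Mmp3 was at 1.40, 6.19 and 6.71 CPM against 1.41, 1.77 and 0.533 CPM (1.94, SE 0.65), and Timp1 at 1.24, 7.44 and 3.48 CPM against 1.78, 0.949 and 0.605 CPM (1.87, SE 0.66). For these 3 genes the high values were in replicates 4-1 and 4-2, and replicate 2-1 did not exceed the highest DIO-GFP library. The same held for Tnc and Col12a1. Replicates 4-1 and 4-2 share a first number, and no first number occurs under both labels. What it stands for is not given, so it cannot be told apart from the label.

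Mmp8, which neutrophils store in their granules, was at 0.379, 6.57 and 3.24 CPM against 0.252, 0.309 and 0 CPM (log2 fold change 4.17, SE 1.29), and Mmp14 had 0.53 (SE 0.22). Summed leukocyte markers (6 genes) were at 459, 219 and 360 CPM in DIO-zeta and at 277, 260 and 135 CPM in DIO-GFP, and their part was not tested. Of 9 collagen receptor genes, 1 was higher at an unadjusted p under 0.05, as were 2.41% of all tested genes. It was the inhibitory immune receptor gene Lair1, at 6.21, 6.25 and 8.02 CPM with the DIO-zeta label and 4.49, 4.43 and 5.28 CPM with the DIO-GFP label (0.53, SE 0.23). Ddr1, a receptor kinase of epithelia, had -0.52 (SE 0.26). Of 17 genes of TGF-beta signalling, a main inducer of collagen genes in fibroblasts, 10 were above 0 (median log2 fold change 0.067), as were 54.3% of all tested genes. Tgfbr2, the type II receptor, had 0.48 (SE 0.21).

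**Figure D5:**
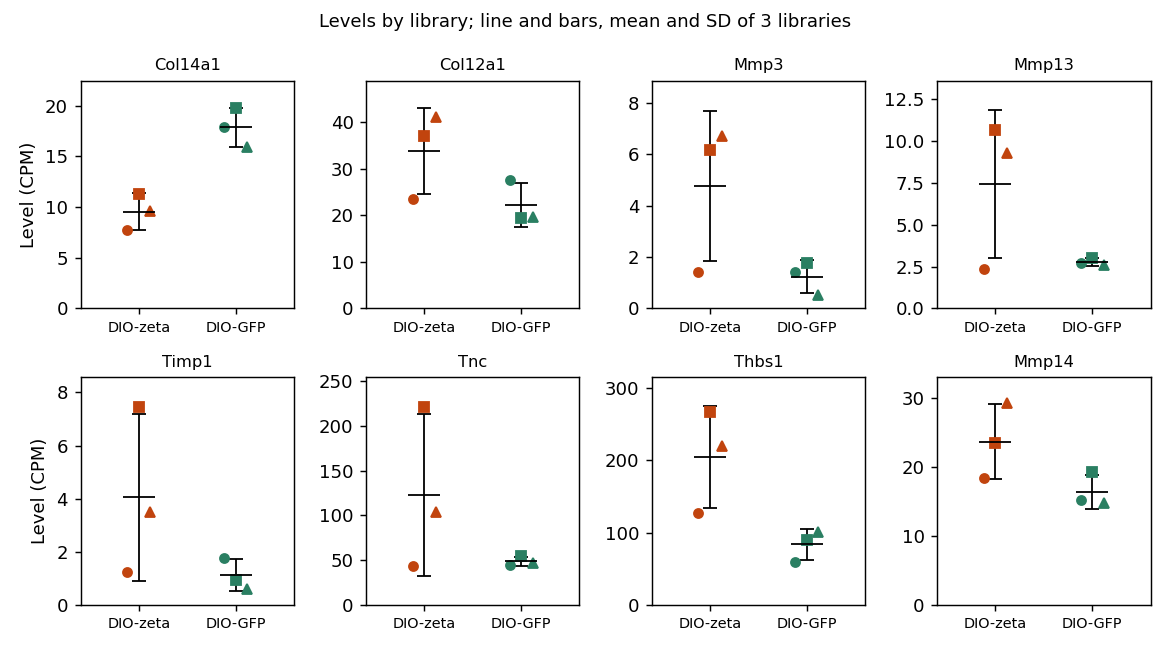
CPM of Col14a1, Col12a1 and 6 genes of the matrix lists in each library, DIO-zeta left of DIO-GFP, with the mean and SD of 3 libraries (black). Col14a1 is lower in all 3 DIO-zeta libraries, and Mmp3, Mmp13, Timp1 and Tnc are high in replicates 4-1 and 4-2 while replicate 2-1 lies near the DIO-GFP libraries.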

How the data were processed

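Total RNA from 6 samples of small intestine was depleted of ribosomal RNA and made into stranded libraries, per the labels' protocols. FastQC, Trimmomatic, HISAT2 and StringTie with mm10 were used, per the submitters' processing notes. No source used here names the program that counted reads. Per the file headers, each library has 3 deposited values for a gene, which are its raw read count, its FPKM and its TPM. FPKM served for levels and ratios between genes, which for libraries of unequal makeup shift with what else was sequenced, and TPM only in an alternative.

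Counts were tested with edgeR 4.0.16 (R 4.3.3; filterByExpr, TMM, robust quasi-likelihood F test, two-sided), with Benjamini-Hochberg adjustment over 18456 genes. The biological coefficient of variation was 0.354. The test was checked on simulated counts. Alternatives were other scalings and filters, DESeq2 1.42.0, limma 3.58.1, log2 TPM, protein-coding rows alone and leaving out each library, and the ribosomal RNA covariate was chosen after seeing the data.

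Fold changes are given for members at a mean of 5 FPKM or more or an unadjusted p under 0.05, and in each list for up to 6 genes past that p, or for the 2 with the smallest p; 1 gene of the TGF-beta list that this rule names is not reported here. Members and lists were chosen with earlier results of these data known. Positions and promoter windows are RefSeq's (GRCm38), and exons and base composition are of GENCODE M21 transcripts.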

Additional observations from a re-analysis of the deposited data

How the results depend on the processing

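The count of collagen genes past the threshold was 0 in edgeR and stayed 0 under 16 of 17 alternatives, DESeq2 with 1 (82 genes in all) being the exception. Col14a1, Col12a1, Col22a1, Col4a1 and Col6a2 kept their sign in every alternative run. Col1a2 turned to -0.026 with DESeq2's size factors and in DESeq2 (-0.026), to -0.14 in limma voom, to -0.0088 on protein-coding rows and to -0.16 with the ribosomal RNA covariate. Col3a1 was 0.084 on log2(TPM + 1) and 0.082 on log2(TPM + 0.1), scales on which the median of all tested genes was itself 0.14 and 0.23. With the ribosomal RNA covariate Col6a1 was -0.13, and the medians were -0.24 (fibrillar), -0.19 (type IV, which turned) and -0.13 (other, which turned). The cause of these turns was not tested.

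Leaving out each library gave -0.53 to 0.16 for Col3a1, -0.42 to 0.23 for Col1a2 and -0.11 to 0.36 for Col6a1. The medians ran from -0.41 to 0.13 (fibrillar), from -0.42 to 0.24 (type IV) and from -0.11 to 0.29 (other), the lowest value of each being without DIO-zeta replicate 4-2. The log2 ratio differences ran from -0.082 to 0.39 for Col3a1/Col1a1, -0.10 to 0.24 for Col5a2/Col1a2, -1.0 to 0.16 for Col4a3/Col4a4 and -0.18 to 0.053 for Col4a5/Col4a6. No paired analysis was possible because the groups share no replicate number. Libraries 1-1 and 1-4, and 4-1 and 4-2, share a first number whose meaning the labels do not give.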

Other observations

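A pair of scarce members had most of their reads in the same libraries. Col26a1 had 9, 0 and 2 reads in DIO-zeta replicates 2-1, 4-1 and 4-2 and 10, 0 and 0 reads in DIO-GFP replicates 1-1, 1-4 and 3-1. Col10a1, which lies inside Nt5dc1, had 11, 0 and 0 reads in the DIO-zeta libraries and 6, 0 and 0 reads in the DIO-GFP libraries, in the same order. Both were thus seen mainly in replicates 2-1 and 1-1, and a count of 0 allows up to 3 reads, or 0.0378 CPM at most, by counting error alone.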
